A study of Mus musculus with 7 samples.

Results

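The genes described here carry the MHC class I antigen presentation pathway in brown adipose tissue: the classical heavy chains H2-K1 and H2-D1, their partner B2m, the peptide transporter Tap1 and Tap2, the loading factor Tapbp, the 3 immunoproteasome subunits Psmb8, Psmb9 and Psmb10, and Nlrc5, the transactivator of class I genes. They were chosen by gene name, as 10 of the 55487 genes in the deposited table, and all 10 passed the filter on low counts that left 16823 genes for testing. Brown fat RNA came from 7 NOD/ShiLtJ mice, an inbred strain prone to autoimmune diabetes, selected at a blood glucose of 190 to 230 mg/dL. Of these, 4 received CB-100 and 3 received KRBH buffer alone, called sham. CB-100 is the fraction above 100 kDa of buffer conditioned by brown adipocytes (the sample labels call the source imBAT), given subcutaneously at 1.5 mg per kg of body weight over 7 days. The tissue was collected 2 to 8 weeks after the injections. No age, batch or week of collection per mouse is given in the labels. The labels also mark every CB-100 title with nd and every sham title with d, codes they do not explain, so that what these codes stand for and the injection cannot be told apart.

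Class I molecules show peptides from inside the cell to CD8 T cells. Proteasomes cut proteins into peptides, the TAP transporter carries the peptides into the endoplasmic reticulum, and tapasin, the product of Tapbp, holds empty class I molecules at the transporter while peptides are loaded. Interferon gamma raises most genes of the pathway, acting through IRF1 and, for class I genes, through NLRC5, and it exchanges the catalytic proteasome subunits PSMB5, PSMB6 and PSMB7 for PSMB8, PSMB9 and PSMB10. In NOD mice, presentation by class I molecules of pancreatic beta cells is known as a step in the autoimmune attack on the islets.

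Library totals ran from 10815101 to 28528471 counts. Sex, read from Xist and Y-linked genes, was male in 1 mouse of each group (replicate 3 in both) and female in the other 5. Mitochondrially encoded genes took 22.32% to 36.3% of counts in CB-100 and 14.27% to 22.79% in sham, and the structural RNAs 7SL and 7SK took 9.54% to 14.4% and 5.889% to 8.355%. Levels below are normalized CPM, that is, counts of each library brought to a common total with TMM factors. Changes are log2 of CB-100 over sham from edgeR's quasi-likelihood test with its standard error (SE), called at a Benjamini-Hochberg adjusted p under 0.05 over all 16823 genes.

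Nlrc5 was the 1 gene of the 10 that changed, rising 2.22-fold in CB-100. The heavy chains, B2m, the transporter, tapasin and the immunoproteasome subunits did not pass the test, with log2 changes between -0.51 (Psmb10) and 0.57 (Tap1). Over the 10 genes the count was 1 higher, 0 lower and 9 not called, against 3.7% of all tested genes called, 1.42% higher and 2.28% lower. Of the 10 estimates 8 were above 0, with a median of 0.28, against a median of 0.03 over all genes tested. In 3 genes, Nlrc5, Tap1 and Tap2, all CB-100 values exceeded all sham values, an arrangement found in 11.1% of tested genes, and in none of the 10 were they all below, as in 12.2% of tested genes.

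**Figure D1:**
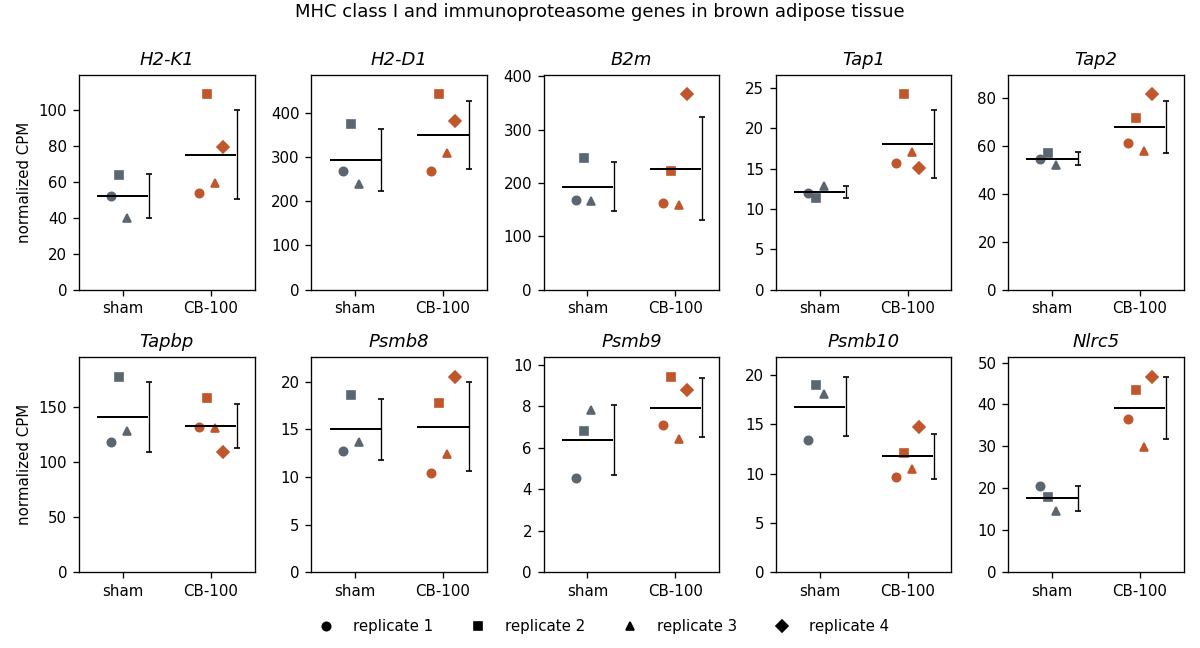
Normalized CPM (vertical axes, each from 0) of the 10 genes in the 3 sham and 4 CB-100 libraries, 1 marker per library with its shape giving the replicate number, horizontal lines at the group means and bars of 1 SD beside the points. Nlrc5, Tap1 and Tap2 show no overlap between the groups, and in the other 7 genes the groups overlap.

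NLRC5 moves to the nucleus and acts with factors bound at class I promoters. Nlrc5 stood at 36.6, 43.5, 29.9 and 46.6 CPM in CB-100 replicates 1 to 4 and at 20.5, 18.0 and 14.5 CPM in sham replicates 1 to 3. The lowest CB-100 value, from the male mouse, lay above the highest sham value, so the groups did not overlap. The means were 39.1 ± 7.43 CPM (SD, n = 4) and 17.7 ± 2.98 CPM (SD, n = 3), and the log2 change was 1.15 (SE 0.19, 95% interval 0.71 to 1.59, edgeR adjusted p = 0.028). Within sexes the male given CB-100 had 29.9 CPM against 14.5 CPM in the sham male, and the females had 36.6 to 46.6 CPM against 18.0 to 20.5 CPM. Its counts were whole numbers in all 7 libraries, between 262 and 1001. The gene lies at chromosome 8, 94434356 to 94527272, on the plus strand of GRCm38, and exons of the opposite gene model 9330175E14Rik, at 1.27 to 2.84 CPM, overlap it, so that its level is uncertain to the extent that reads were counted without strand. The call rested on the library set: the edgeR adjusted p was 0.055 and 0.065 when CB-100 replicate 1 or 2 was left out, and 0.071, 0.055 and 0.13 when sham replicate 1, 2 or 3 was. It was 0.15 in the females alone (log2 change 1.13) and 0.15 with a skeletal muscle score as covariate (0.92), while the estimate stayed between 0.92 and 1.26 in all 18 alternatives run.

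H2-K1 and H2-D1 encode the polymorphic chains that hold the peptide, and B2m the small invariant chain that every classical class I molecule needs. RefSeq promoter sequence on GRCm38.p6 was found for 8 of the 10 genes, and Tap2 and Nlrc5 had no entry. The 250 bases before the start of these 3 genes are shown because they hold the sites through which NLRC5, interferon and NF-kB are known to act on class I genes. They are of the reference strain, C57BL/6J, not of NOD mice, whose alleles were not compared with them. Capitals mark matches, on either strand, to any of 6 motifs: the interferon-stimulated response element core GAAANNGAAA, the interferon consensus sequence core GAANTGAAA, the gamma-activated site TTCNNNGAA, the NF-kB site GGGANNNNCC, the cAMP response element core TGACG (the inner part of the X2 box) and the CCAAT box. The windows are chr17:34000348-34000597 on the minus strand for H2-K1, chr17:35262844-35263093 on the plus strand for H2-D1 and chr2:122147437-122147686 on the plus strand for B2m, each written 5′ to 3′.
H2-K1: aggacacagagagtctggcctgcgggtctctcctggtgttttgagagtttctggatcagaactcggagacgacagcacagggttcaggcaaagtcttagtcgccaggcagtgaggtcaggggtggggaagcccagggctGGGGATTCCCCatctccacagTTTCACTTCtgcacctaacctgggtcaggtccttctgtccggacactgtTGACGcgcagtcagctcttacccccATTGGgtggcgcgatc
H2-D1: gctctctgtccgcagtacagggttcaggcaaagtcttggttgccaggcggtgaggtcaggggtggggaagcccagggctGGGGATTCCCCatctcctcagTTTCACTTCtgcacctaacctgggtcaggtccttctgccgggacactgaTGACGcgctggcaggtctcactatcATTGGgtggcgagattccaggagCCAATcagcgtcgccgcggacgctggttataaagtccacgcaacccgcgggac
B2m: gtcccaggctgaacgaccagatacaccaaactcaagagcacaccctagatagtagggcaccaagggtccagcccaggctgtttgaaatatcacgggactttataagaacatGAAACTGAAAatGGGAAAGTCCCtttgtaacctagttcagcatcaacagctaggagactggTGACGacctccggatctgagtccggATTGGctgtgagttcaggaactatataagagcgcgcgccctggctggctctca

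In a pairwise alignment of the H2-K1 and H2-D1 stretches, 170 of 190 positions were identical (89.5%). In both, reading towards the start, the NF-kB match comes first, then GAANTGAAA on the opposite strand, then TGACG and a CCAAT box, and B2m has GAAANNGAAA before its NF-kB match. Among 32851 RefSeq promoters of the same length, 2.98% hold GAAANNGAAA, 1.5% GAANTGAAA, 7.02% TTCNNNGAA, 17.6% GGGANNNNCC, 17.8% TGACG and 33.8% CCAAT. Of the 8 promoters, B2m alone held GAAANNGAAA, H2-K1 and H2-D1 held GAANTGAAA, and Psmb8 alone held TTCNNNGAA. The NF-kB letters were in H2-K1, H2-D1 and B2m, TGACG was in these 3 and in Tap1 and Psmb9, and CCAAT was in those 5 and in Tapbp. A match describes the letters only.

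The RNA of these 3 genes had estimates above 0 that did not pass. H2-K1 stood at 53.7, 108, 59.0 and 79.1 CPM in CB-100 replicates 1 to 4 and at 51.9, 63.9 and 39.6 CPM in sham replicates 1 to 3. CB-100 replicates 2 and 4 lay above the sham range and replicates 1 and 3 inside it. The log2 change was 0.54 (SE 0.27, 95% interval -0.07 to 1.14, edgeR adjusted p = 0.26), and 0.31 without CB-100 replicate 2. H2-D1 was at 269.8, 443, 310 and 382 CPM in CB-100 and at 268, 375 and 240.2 CPM in sham, so that the groups overlapped through sham replicate 2. Its log2 change was 0.25 (SE 0.24, 95% interval -0.28 to 0.79, edgeR adjusted p = 0.55). B2m was at 161, 222, 158 and 366 CPM in CB-100 and at 167, 247 and 165 CPM in sham. CB-100 replicate 4 alone lay above the sham range, and 2 CB-100 libraries lay below it. The log2 change of B2m was 0.23 (SE 0.32, 95% interval -0.48 to 0.95, edgeR adjusted p = 0.69), against -0.10 without CB-100 replicate 4 and 0.72 with a correction for exon length and GC content (edgeR adjusted p = 0.205).

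H2-K1 lies at chromosome 17, 33996017 to 34000347, minus strand, H2-D1 at chromosome 17, 35262730 to 35267499, plus strand, and B2m at chromosome 2, 122147686 to 122153083, plus strand. H2-K1 and H2-D1 are near-identical to other class I genes and had non-whole counts in 7 and 6 libraries, so their split from those genes is uncertain. B2m had whole counts, and the opposite gene Patl2 that overlaps it had 0 counts. Of 19 further class I and class I-like heavy chain genes 15 were tested, with 0 called, 11 estimates above 0 and a median of 0.51. H2-Q7, a nonclassical chain whose counts are uncertain for the same reason, had 8.73, 24.4, 13.4 and 12.1 CPM in CB-100 and 8.07, 7.49 and 6.30 CPM in sham. These groups did not overlap, and the log2 change was 1.00 (edgeR adjusted p = 0.11). Hfe, the class I-like regulator of iron uptake, had a log2 change of 0.51 (edgeR adjusted p = 0.20).

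Tap1 and Tap2 form the transporter, and in both genes the CB-100 values lay above the sham values without passing the test. Tap1 was at 15.7, 24.2, 17.04 and 15.1 CPM in CB-100 replicates 1 to 4 and at 12.0, 11.3 and 12.9 CPM in sham replicates 1 to 3. The sham libraries lay close together (12.1 ± 0.776 CPM, SD, n = 3), and CB-100 replicate 2 stood above the other CB-100 libraries. The log2 change was 0.57 (SE 0.19, 95% interval 0.14 to 1.01, edgeR adjusted p = 0.11), and 0.40 without CB-100 replicate 2. Tap2 was at 61.0, 71.6, 57.6 and 81.4 CPM in CB-100 and at 54.7, 57.2 and 52.0 CPM in sham. CB-100 replicate 3 and sham replicate 2, at the facing edges of the groups, nearly met. The log2 change of Tap2 was 0.31 (SE 0.15, 95% interval -0.03 to 0.66, edgeR adjusted p = 0.25).

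Tap1 and Psmb9 are read in opposite directions from a common stretch of 225 bases between their RefSeq starts, chr17:34187331-34187555, shown because both genes take their promoter from it. It is written on the plus strand, with Psmb9 to its left and Tap1 to its right, and capitals mark the motifs above: 1 match to TGACG and 1 to the CCAAT box, and none to the other 4.
Psmb9 to Tap1: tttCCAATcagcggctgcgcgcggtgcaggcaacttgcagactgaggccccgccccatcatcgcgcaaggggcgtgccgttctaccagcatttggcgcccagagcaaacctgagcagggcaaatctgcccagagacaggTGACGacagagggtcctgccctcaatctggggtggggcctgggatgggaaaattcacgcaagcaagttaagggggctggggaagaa

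On GRCm38 the annotated exons of Tap1 (chromosome 17, 34187553 to 34197225, plus strand) and Psmb9 (34181987 to 34187764, minus strand) overlap at this end. Both had non-whole counts in all 7 libraries, and reads there cannot be told apart without strand. Tap2 (chromosome 17, 34203527 to 34216321, plus strand) had non-whole counts in 7 libraries and is overlapped by the opposite models Gm20496 and Gm15821, and is uncertain for this.

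Tapbp had 132, 159, 131 and 109 CPM in CB-100 and 118, 178 and 129 CPM in sham. Replicate 2 of sham was the highest library and replicate 4 of CB-100 the lowest, and the groups overlapped. The log2 change was -0.09 (SE 0.19, 95% interval -0.53 to 0.35, edgeR adjusted p = 0.81). Tapbp lies at chromosome 17, 33915899 to 33929292, plus strand, with exons of Zbtb22 on the same strand and non-whole counts in 7 libraries, and is uncertain for both. The 11 other genes of peptide loading and trimming, such as chaperones of the endoplasmic reticulum and peptidases, had 0 called and a median of -0.22, with 4 estimates above 0 and 7 below. Those with the smallest p were Erap1, the aminopeptidase that trims peptides in the endoplasmic reticulum (log2 change -0.50, edgeR adjusted p = 0.089), and Tpp2, a cytosolic peptidase (-0.37, edgeR adjusted p = 0.11). In both, the CB-100 values lay below the sham values, and Erap1 is uncertain for non-whole counts and its overlap with Cast.

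None of the 3 immunoproteasome subunits passed the test, and their estimates went different ways. Psmb8, the chymotrypsin-like subunit, was at 10.4, 17.8, 12.4 and 20.5 CPM in CB-100 replicates 1 to 4 and at 12.7, 18.6 and 13.7 CPM in sham replicates 1 to 3. Libraries of both groups were spread over the same range, and the log2 change was 0.03 (SE 0.26, 95% interval -0.55 to 0.61, edgeR adjusted p = 0.95). Psmb9 was at 7.08, 9.41, 6.40 and 8.79 CPM in CB-100 and at 4.53, 6.80 and 7.80 CPM in sham. CB-100 replicates 2 and 4 lay above the sham range, and the log2 change was 0.31 (SE 0.24, 95% interval -0.24 to 0.86, edgeR adjusted p = 0.46). Psmb10, the trypsin-like subunit, was at 9.66, 12.1, 10.5 and 14.7 CPM in CB-100 and at 13.4, 19.0 and 18.1 CPM in sham. CB-100 replicates 1 to 3 lay below the sham range and replicate 4 inside it. The log2 change of Psmb10 was -0.51 (SE 0.20, 95% interval -0.96 to -0.07, edgeR adjusted p = 0.16).

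Psmb8 lies at chromosome 17, 34197721 to 34201454, plus strand, between Tap1 and Tap2, and had non-whole counts in 2 libraries, and is uncertain for this. Psmb10 lies at chromosome 8, 105935735 to 105938444, minus strand, with whole counts, and the opposite model Gm16156 overlaps it outside its exons.

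Of the 3 constitutive subunits that the immunoproteasome replaces, Psmb6 and Psmb7 were lower in CB-100, where 2.28% of all tested genes were called lower. Psmb7, replaced by PSMB10, was at 36.2, 24.7, 33.9 and 36.8 CPM in CB-100 and at 50.8, 57.5 and 62.3 CPM in sham, and it fell by 0.79 on the log2 scale with an SE of 0.16 (edgeR adjusted p = 0.039). Psmb6, replaced by PSMB9, was at 33.8, 28.7, 38.7 and 38.0 CPM in CB-100 and at 48.2, 58.5 and 59.6 CPM in sham, and it fell by 0.67 (SE 0.15, edgeR adjusted p = 0.047). In both genes all CB-100 values lay below all sham values, as in 12.2% of tested genes. Psmb5, replaced by PSMB8, was at 15.8, 10.4, 15.2 and 22.6 CPM in CB-100 and at 20.98, 31.0 and 23.1 CPM in sham, with overlap through CB-100 replicate 4 (log2 change -0.64, SE 0.25, edgeR adjusted p = 0.16). Of 7 genes of proteasome assembly and the PA28 activator, 1 fell and 0 rose, against 2.28% and 1.42% of all tested genes. All 7 estimates were below 0, with a median of -0.32, against 7950 of 16823 estimates below 0 over all genes tested. The 1 called was Psme1, a PA28 subunit that interferon gamma also raises (fell by 0.77, SE 0.18, edgeR adjusted p = 0.0497), while its partner Psme2 had a log2 change of -0.05 (edgeR adjusted p = 0.89). The calls of Psmb6 and Psmb7 were kept without CB-100 replicate 4 and lost without any 1 of the other 6 libraries (edgeR adjusted p up to 0.17 and 0.16), and that of Psme1 was lost without any 1 of the 7. With a correction for exon length and GC content their log2 changes were -0.50, -0.63 and -0.75 (edgeR adjusted p = 0.079, 0.063 and 0.062), and with sex as covariate the calls were lost as well (edgeR adjusted p = 0.068, 0.063 and 0.067). Psmb7 had non-whole counts and overlaps Nek6, Psme1 overlaps Emc9, and Psmb5 and Psme2 had non-whole counts, so these values are uncertain.

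Within each library, the ratio of each inducible subunit's counts to those of the subunit it replaces does not depend on the library total. Psmb9 over Psmb6 was 0.210, 0.328, 0.165 and 0.231 in CB-100 and 0.0944, 0.116 and 0.131 in sham. The CB-100 libraries all lay above the sham libraries, 2.00-fold on average (log2 difference 1.00, exact two-sided permutation p = 0.0571, Benjamini-Hochberg adjusted 0.0857 over the 3 ratios). Psmb8 over Psmb5 was 0.662, 1.71, 0.813 and 0.909 in CB-100 and 0.606, 0.601 and 0.593 in sham. Again there was no overlap, and CB-100 replicate 2 stood far above the rest. The log2 difference was 0.67 (exact two-sided permutation p = 0.0571, adjusted 0.0857), and 0.39 without CB-100 replicate 2. Psmb10 over Psmb7 was 0.267, 0.487, 0.310 and 0.400 in CB-100 and 0.263, 0.330 and 0.290 in sham, where the groups overlapped (log2 difference 0.28, exact two-sided permutation p = 0.343). None of the 3 passed, and the smallest p that the 35 splits of 7 libraries allow is 0.0286. The separate log2 changes were 0.03 for Psmb8 and -0.64 for Psmb5, and 0.31 for Psmb9 and -0.67 for Psmb6. Psmb10 and Psmb7 were both below 0, at -0.51 and -0.79. Whether the inducible and the constitutive subunit differ in their part of a ratio's difference was not tested.

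**Figure D2:**
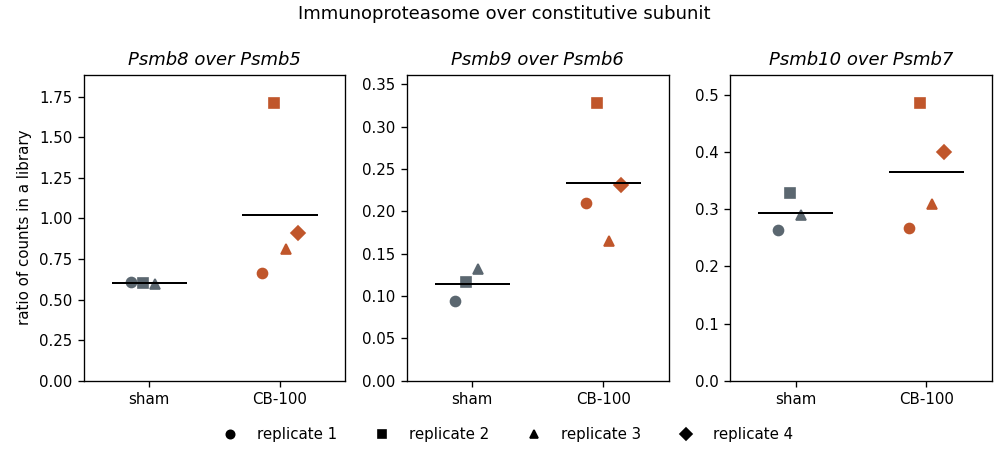
Ratio of counts within a library (vertical axes, each from 0) of each immunoproteasome subunit over the constitutive subunit it replaces, for 3 sham and 4 CB-100 libraries, 1 marker per library with shape giving the replicate number and lines at the group means. The groups are apart for Psmb8 over Psmb5 and Psmb9 over Psmb6, with CB-100 replicate 2 at 1.71 in the first, and overlap for Psmb10 over Psmb7.

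Upstream of the pathway 1 interferon receptor gene, Ifngr1, was called lower, and 2 genes that interferon gamma induces were called higher. Ifng itself had 0 counts in all 7 libraries, where 3 counts correspond to 0.140 to 0.274 CPM. Of 24 tested genes of interferon signalling and class I regulation 1 fell and 0 rose, against 2.28% and 1.42% of all tested genes. In that list 14 estimates were above 0, with a median of 0.07. The gene that fell was Ifngr1, the ligand-binding chain of the interferon gamma receptor. It was at 57.0, 69.7, 70.0 and 62.1 CPM in CB-100 and at 172, 93.5 and 130.0 CPM in sham. This was a log2 change of -1.03 with an SE of 0.21 (edgeR adjusted p = 0.036). Its call was kept without CB-100 replicate 4 or sham replicate 2 and lost without any 1 of the other 5 libraries, and with sex as covariate or the length and GC correction (edgeR adjusted p = 0.057 and 0.068). Ifngr2, the other chain of this receptor, was chosen after its values were seen and went the other way. It was at 12.1, 15.5, 11.8 and 10.9 CPM in CB-100 and at 5.26, 9.62 and 10.1 CPM in sham. These groups did not overlap, and the log2 change was 0.60 (SE 0.25, edgeR adjusted p = 0.19). Irf1, an interferon-induced transcription factor that is uncertain for non-whole counts and the opposite model Gm17334, had a log2 change of 0.30 (edgeR adjusted p = 0.34).

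Of 15 tested genes that interferon gamma induces outside the class I pathway, 2 rose and 0 fell, against 1.42% and 2.28% of all tested genes. In that list 13 estimates were above 0, with a median of 0.30. Ciita, the class II counterpart of NLRC5, was at 5.44, 7.67, 4.24 and 4.93 CPM in CB-100 and at 1.56, 1.65 and 2.49 CPM in sham, a log2 change of 1.54 with an SE of 0.30 (edgeR adjusted p = 0.035). Gbp6, an interferon-induced GTPase, was at 28.8, 18.1, 18.6 and 18.1 CPM in CB-100 and at 8.59, 10.8 and 11.9 CPM in sham, a log2 change of 1.00 with an SE of 0.22 (edgeR adjusted p = 0.045). In both genes the groups were apart, and both calls were kept without CB-100 replicate 4 and lost without any 1 of the other 6 libraries. With sex as covariate both calls were lost (edgeR adjusted p = 0.056 for Ciita and 0.069 for Gbp6), and with the length and GC correction that of Ciita was lost (edgeR adjusted p = 0.063). Ciita overlaps Dexi and Gbp6 had non-whole counts, so both are uncertain. Class II genes, which CIITA controls, had 0 of 7 called and a median of 0.36, with H2-Ab1, a class II beta chain uncertain for non-whole counts, at a log2 change of 0.62 (edgeR adjusted p = 0.16) and Ctss, the protease cathepsin S, at -0.54 (edgeR adjusted p = 0.29).

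**Figure D3:**
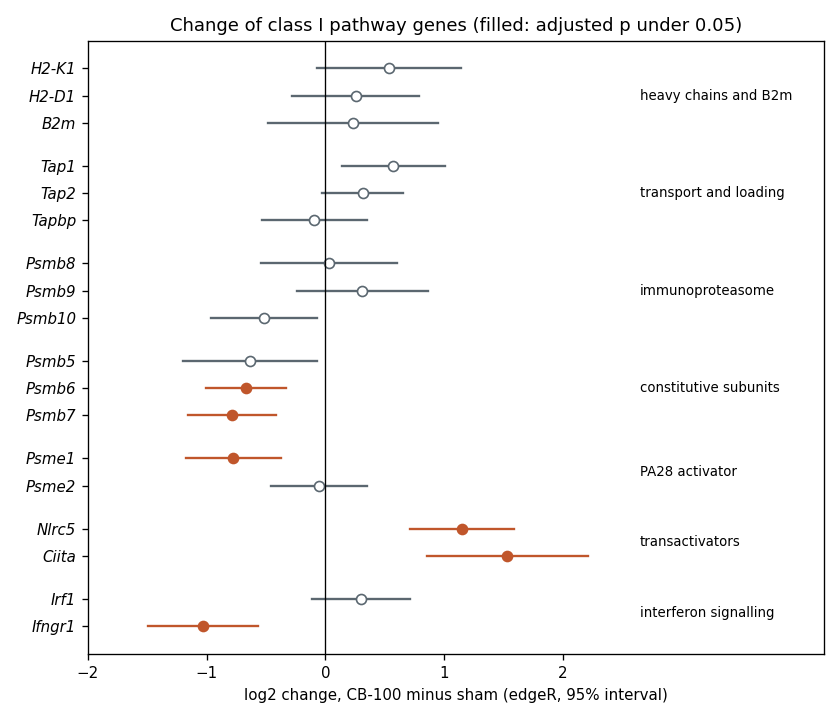
Log2 change of CB-100 over sham (horizontal axis) with 95% intervals from edgeR, by role in the pathway, filled where the adjusted p is under 0.05. Nlrc5 (1.15) and Ciita (1.54) lie above 0, Psmb6, Psmb7, Psme1 and Ifngr1 below it, and the intervals of the heavy chains, B2m, Tapbp, Psmb8 and Psmb9 span it.

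Per kilobase of annotated exon, B2m had the highest level of the 10 genes at 247 ± 88.5 CPM per kb (SD over the 7 libraries), followed by H2-D1 at 127 ± 29.0 CPM per kb. Next were Tapbp at 37.6, H2-K1 at 22.2, Tap2 at 16.5, Psmb10 at 8.16, Psmb8 at 4.48, Nlrc5 at 3.52, Tap1 at 2.82 and Psmb9 at 1.98 CPM per kb. Ranges over the libraries were apart between B2m and H2-D1, between H2-D1 and Tapbp and between Tap2 and Psmb10, and the other neighbours in this order overlapped. The order of Nlrc5 depended on the group: in sham it was at 2.08, below Tap1 at 2.20 CPM per kb, and in CB-100 at 4.61, next to Psmb8 at 4.52 CPM per kb. With the length of the longest transcript, Tap1 and Nlrc5 changed places in the mean of all libraries and the ranges of B2m and H2-D1 overlapped. In the mean by exon union, the inducible Psmb8 and Psmb9 were below the constitutive Psmb5, at 22.1, and Psmb6, at 23.3 CPM per kb. Psmb10 was below Psmb7, at 12.6 CPM per kb. The size of these gaps depends on the length used. With the longest transcript Psmb8 was at 7.95 against Psmb5 at 22.1, and Psmb9 at 2.52 against Psmb6 at 45.2 CPM per kb. Psmb10 was then at 10.6 against Psmb7 at 15.2 CPM per kb, but above it in CB-100 replicate 2 (9.20 against 8.69). The transcript of the reference strain was the basis of the H2-K1 and H2-D1 counts. Whether NOD alleles differ from it in either gene, and any effect on its level, was not tested. The same strain was in both groups.

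**Figure D4:**
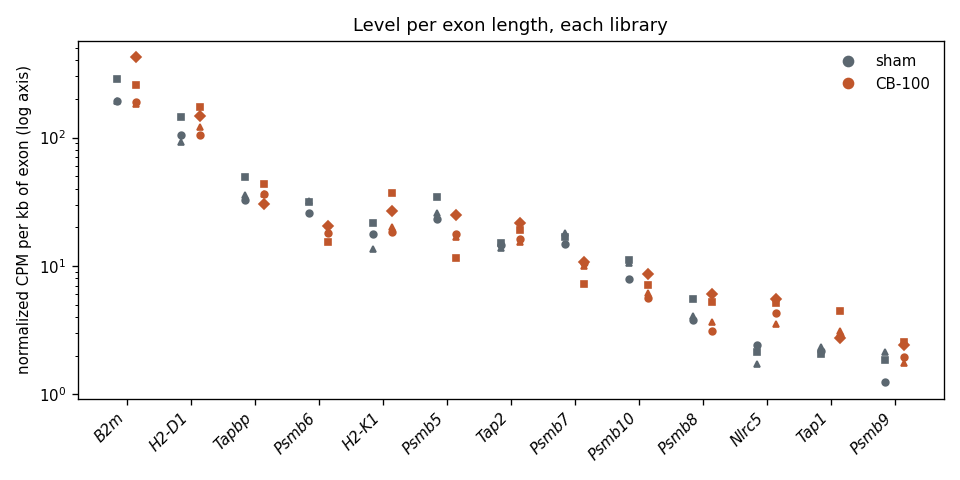
Normalized CPM per kb of exon (vertical log axis) of the 10 genes and the 3 constitutive subunits in each library, ordered by mean, with sham in grey and CB-100 in orange and marker shapes for replicates as in the plot of each gene by library. Levels run from B2m (mean 247) to Psmb9 (mean 1.98).

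The members did not share 1 pattern over the libraries. CB-100 replicate 2 was the highest library for H2-K1, H2-D1, Tap1 and Psmb9, and CB-100 replicate 4 for B2m, Tap2, Psmb8 and Nlrc5. Sham replicate 2 was the highest for Tapbp and Psmb10, and sham replicate 3 the lowest for H2-K1, H2-D1, Tap2 and Nlrc5. Against the mean standardized profile of the 10 genes, the root mean square difference over the 7 libraries was smallest for H2-D1 (0.31) and H2-K1 (0.40) and largest for Tapbp (1.08) and Psmb10 (1.24), with Nlrc5 at 0.80. Outside the 10, the protein-coding genes nearest to that mean profile were Fcho1 (0.173), Il1rl2 (0.188), Gm11127 (0.220), Marcksl1 (0.221) and Fn1 (0.231), the last encoding fibronectin.

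Leukocytes and endothelial cells carry much class I, so the marker lists of these and other cell types were summed in each library, and none of their tested genes was called. Macrophage and dendritic cell markers (8 of 11 tested, 3 estimates above 0 and 5 below, median -0.10) summed to 99.8 to 236 CPM in CB-100 and 112 to 177 CPM in sham, and were highest in CB-100 replicate 2, as were H2-K1 and H2-D1. Those with the smallest p were Adgre1, which encodes F4/80, at a log2 change of 0.50 (edgeR adjusted p = 0.33), and Cd68, at -0.36 (edgeR adjusted p = 0.40). Pan-leukocyte markers (5 tested, 3 above 0 and 2 below, median 0.06) summed to 30.9 to 50.7 CPM in CB-100 and 27.3 to 41.6 CPM in sham. In that list Ptprc, the common leukocyte antigen CD45, had a log2 change of 0.53 (edgeR adjusted p = 0.11) with no overlap between the groups, and Cd53, a leukocyte tetraspanin, one of -0.36 (edgeR adjusted p = 0.69).

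T and NK cell markers (2 above 0 and 3 below, median -0.19) summed to 7.44 to 8.60 CPM in CB-100 and 5.02 to 11.4 CPM in sham. Of these 14 genes 5 were tested, and Cd3d, Cd3g, Cd8a, Cd8b1 and Ncr1 were among those too low to test, with none at 0 in all 7 libraries. Trac, the T cell receptor alpha constant region, was at 0.930, 0.822, 0.431 and 1.21 CPM in CB-100 replicates 1 to 4 and at 0.260, 0.206 and 0.0470 CPM in sham replicates 1 to 3. All CB-100 values of Trac exceeded all sham values, at a log2 change of 2.32 with an SE of 0.62 (edgeR adjusted p = 0.068). Its sham values lay near the floor, since 3 counts correspond to 0.140 to 0.274 CPM, so the size of this change is uncertain. Prf1, the pore-forming protein of cytotoxic cells, had a log2 change of 1.31 (edgeR adjusted p = 0.17). In the opposite direction, Cd3e, a chain of the T cell receptor complex that was chosen after its values were seen, had one of -1.38 (edgeR adjusted p = 0.20). B cell markers (2 of 6 tested) summed to 10.3 to 16.3 CPM in CB-100 and 2.55 to 7.29 CPM in sham without overlap. Most of each sum was Ighm, the IgM heavy chain. Ighm was at 7.98 to 13.3 CPM in CB-100 and 1.93 to 5.29 CPM in sham, a log2 change of 1.47 (edgeR adjusted p = 0.054). In Cd79a, of the B cell receptor, the groups overlapped, with a log2 change of 0.19 (edgeR adjusted p = 0.82).

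Endothelial markers (6 tested, 5 above 0 and 1 below, median 0.40) summed to 648 to 1476 CPM in CB-100 and 541 to 909 CPM in sham. They were highest in CB-100 replicate 4, as were B2m, Tap2, Psmb8 and Nlrc5, while Tapbp was lowest there. Sham replicate 1 had the next highest sum, 909 CPM, with B2m at 167 CPM and Nlrc5 at 20.5 CPM. Emcn, which encodes endomucin, had a log2 change of 1.13 (edgeR adjusted p = 0.24) and Kdr, a receptor for vascular endothelial growth factor, one of 0.66 (edgeR adjusted p = 0.25). Skeletal muscle markers (10 tested, all estimates below 0, median -0.83) summed to 309 to 2316 CPM in CB-100 and 855 to 1919 CPM in sham, and the value of Nlrc5 with a muscle score as covariate is given above. Mylpf and Actn3, of fast muscle fibres, had log2 changes of -1.11 and -1.19 (edgeR adjusted p = 0.33 and 0.40). Adipocyte markers (7 tested, 3 above 0 and 4 below, median -0.24) summed to 3578 to 7293 CPM in CB-100 and 4311 to 7421 CPM in sham. Adipoq, which encodes adiponectin, was at 361, 359, 368 and 375 CPM in CB-100 and at 484, 777 and 808 CPM in sham. Its groups were apart, with a log2 change of -0.91 that missed the threshold (edgeR adjusted p = 0.051) and passed in 5 of 18 alternatives. Ucp1, the uncoupling protein of brown fat, was at 2237, 450, 1098 and 1824 CPM in CB-100 and at 140, 875 and 46.1 CPM in sham, so that the groups overlapped (log2 change 1.99, SE 0.98, edgeR adjusted p = 0.26). Adipoq, a marker of brown and white adipocytes, and Ucp1 were thus present in all 7 libraries, with Ucp1 lowest in sham replicate 3. The part of these cell types in the level of Nlrc5 and of the other members was not tested. In whole tissue, fewer cells of a type and less RNA per cell cannot be told apart.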

How the data were processed

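A single deposited table from the authors holds raw expected counts, not always whole, for 7 libraries of total RNA from brown adipose tissue. Reads were aligned with STAR 2.7.9a to Ensembl release 101, per the labels' protocols. Subread with featureCounts 2.0.3, Salmon 1.5.2, edgeR and limma appear without roles in the submitters' processing notes. How reads were counted, and whether by strand, is not given in the sources used here. Decimals in the counts can come from reads shared among genes, so genes holding them, or sharing exons with another long gene, are called uncertain.

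After removal of 287 repeated lines of 55774, counts were rounded, filtered with filterByExpr, scaled by TMM (factors 0.755 to 1.25) and tested with edgeR 4.0.16 (robust quasi-likelihood, two-sided) in R 4.3.3. The method was tested on simulated data. The SE is the log2 change over the square root of F. Groups held 3 or 4 mice. The labels give animal codes but no statement of independence, so p-values measure only the spread between these samples. Coordinates come from GENCODE M21 (GRCm38), which held 99.5% of the identifiers, and levels per kb use the union of exons. Ratios use the counts with nothing added and exact permutation over 35 splits. With 0.5 added to each count the log2 differences were 0.67 for Psmb8 over Psmb5, 1.00 for Psmb9 over Psmb6 and 0.28 for Psmb10 over Psmb7.

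The 10 members and the 19 gene lists were chosen with earlier results of these data known, and the motif letters with the promoter sequences in view. Genes named are the members, the constitutive subunits, Irf1, Psme1 and Psme2, from each other list described up to 4 called genes of largest change or else up to 2 of smallest p, and the 5 nearest profiles. Of those the rule gives, 1 gene is not reported here, while list counts include it. Other genes are named only as overlapping models, markers too low to test or where said. Alternatives were other scalings and filters, DESeq2 1.42.0, limma voom 3.58.1, sex or a muscle score as covariate, females only, mitochondrial, 7SL and 7SK genes left out, each library left out and, chosen after seeing the data, a length and GC correction (mgcv 1.9.3).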

Additional observations from a re-analysis of the deposited data

Results flagged for a closer look

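In 6 of 48 groups of 4 CB-100 libraries tested for a library standing apart, 1 library lay far from the other 3, where chance gives about 1 in 20. None of the 10 class I genes was among them. Gbp6 was at 28.8 CPM in CB-100 replicate 1, against 18.1 to 18.6 CPM in the others. Ighm, the IgM heavy chain of B cells, was at 13.3 CPM in CB-100 replicate 2, against 7.98 to 8.44 CPM. The endothelial genes Emcn and Kdr were at 61.0 and 573 CPM in CB-100 replicate 4, against 13.7 to 19.4 and 238 to 283 CPM. That library also had the highest B2m, Tap2, Psmb8 and Nlrc5 and the lowest Tapbp. The muscle genes Mylpf and Actn3 were at 26.8 and 93.6 CPM in CB-100 replicate 3, against 3.94 to 7.02 and 10.4 to 13.2 CPM. The part of these libraries in the members' values was not tested beyond leaving each library out.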

How the results depend on the processing

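Over all genes, 622 were called, against 1968 with DESeq2, 1213 with limma voom, 277 with the length and GC correction, 238 with sex as covariate, and 0 by edgeR both with a muscle score as covariate (2562 at an unadjusted p under 0.05) and in the females alone (2578). Leaving out CB-100 replicates 1 to 4 in turn gave 97, 24, 187 and 610, and sham replicates 1 to 3 gave 14, 319 and 8. Of the 10 members 1 was called, against 0 with the muscle score and 0 in the females alone, and 0 to 1 with 1 library left out, where the call was lost for each library but CB-100 replicates 3 and 4. The 1 was Nlrc5 in each of the 11 of 18 alternatives that called it, with no other member called in any of the 18. The members' median stayed between 0.16 and 0.40. Estimates that changed sign were those of B2m (-0.031 with limma voom, -0.10 without CB-100 replicate 4), Tapbp (0.10 without sham replicate 2) and Psmb8 (-0.10 with limma voom, -0.0012 with sex as covariate, -0.045 and -0.15 without CB-100 replicates 2 and 4, -0.084 and -0.041 without sham replicates 1 and 3). The log2 differences of the 3 ratios stayed above 0 throughout, at 0.39 to 0.85 for Psmb8 over Psmb5, 0.82 to 1.15 for Psmb9 over Psmb6 and 0.13 to 0.42 for Psmb10 over Psmb7 with 1 library left out. Apart from smaller sample sets, the cause of these differences was not tested. No paired analysis was possible because the groups share no animal codes in the labels. Nlrc5 had at least 262 counts in each library, and whether depth or the number of mice limits its precision was not tested.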
